A study of Mus musculus with 6 samples.

Results

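The genes described here belong to families of G protein and cAMP signalling. They encode G proteins, adenylyl cyclases, phosphodiesterases, regulators of G protein signalling (RGS) and protein kinase A (PKA) subunits. G protein-coupled receptor kinases (GRKs), Epac proteins and beta-arrestins are also included. Members were matched by gene symbol, with no measured value in the rule, from the families Gna, Gnb, Gng, Adcy, Rgs, Pde, Prkac and Prkar, Grk, Rapgef3 and Rapgef4, and Arrb1 and Arrb2, and 100 of the 22298 genes in the table matched. The symbol rule leaves out the transducin subunits (Gnat and Gngt genes), which are counted below with the other G protein subunits. They comprised 13 G alpha, 5 G beta, 10 G gamma, 10 cyclase, 25 phosphodiesterase and 21 RGS genes, 12 kinase genes (6 of PKA and 6 GRKs), and 4 genes of Epac and arrestin. The material was MIN6, an insulin-secreting line derived from a mouse insulinoma, and total RNA was sequenced from 3 controls and from 3 samples labelled chronic epinephrine. By the scheme of treatment, the exposed cells received 100 nM epinephrine for 3 days and were then kept for 2 days without it. The day of RNA collection for sequencing is not named in the sources used here, and the RNA may date from before or after withdrawal. The methods describe the samples of a group in general as independent biological replicates of this line, without saying how the cultures for sequencing were kept apart.

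In beta cells, epinephrine acts mainly through adrenoceptors that couple to Gi/o proteins. The activated Gi/o alpha subunits inhibit adenylyl cyclase, whereas Gs, engaged by incretin receptors, stimulates it, and the beta-gamma dimer released at the same time acts on ion channels and on the exocytotic machinery. Cyclic AMP promotes insulin secretion through PKA and Epac2 and is removed by phosphodiesterases. The PKA holoenzyme is held inactive by its regulatory subunits, which release the catalytic subunits when they bind cAMP. RGS proteins accelerate the hydrolysis of GTP by G alpha, and GRKs phosphorylate active receptors, to which the arrestins then bind.

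The libraries held 15017065 to 18127171 expected counts. A count of 0 allows a level of up to 0.165 to 0.200 CPM (counts scaled to one common library total). This limit was taken as 3 counts of the total and covers counting error only. The CPM values given below also carry the TMM normalization described with the processing, and this limit does not. Control 1 stood apart from the rest. On the first principal component of all genes, which held 44.6% of the variance, it lay at -38.9, against -2.37 and -0.524 in the other two controls and 12.4 to 15.9 in the epinephrine samples. Among the 77 members tested, control 1 had the highest value of the controls in 47 and the lowest in 22, against 5498 and 5662 of the 12747 genes tested. Results that rest on this sample are therefore given also without it. All 20 beta-cell markers listed passed the filter on low counts. Their summed levels were 59192, 71627 and 75095 CPM in controls 1, 2 and 3. After epinephrine they were 69615, 71560.4 and 71031 CPM. The groups overlapped through control 1, and the other controls lay above every epinephrine sample. In bulk RNA, fewer cells of a type and less RNA per cell cannot be told apart.

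Levels of the 100 members spanned several orders of magnitude (the plot of levels by gene family), and few members passed the test between the groups. Of the 77 members with enough counts to be tested, 5 passed a false discovery rate (FDR, the Benjamini-Hochberg adjusted p of edgeR's quasi-likelihood test over all 12747 genes tested) of 0.05. Prkar1a, Rgs9, Pde1c and Pde10a rose and Gnai1 fell, which is 6.49% of the tested members, against 2.63% of all genes tested (2.02% higher and 0.612% lower). The 5 genes changed by 0.43 to 0.66 on the log2 scale, that is, by less than 2-fold. When a 2-fold change was required beside this FDR, edgeR and DESeq2 both called 0 members, against 0.722% of all genes with edgeR. At an unadjusted p under 0.05, edgeR gave 18 of the 77 members (23.4%, against 17.1% of all genes tested), 8 of them higher (9.19% of all genes) and 10 lower (7.91%). With any fold change, DESeq2 called 7 members, adding Grk5 and Prkacb to the 5, against 4.20% of the 17363 genes in that fit. Low counts were not filtered out before that fit. Its 4.20%, also used below, thus covers more scarce genes than the 77 tested members and is not directly comparable with their share. A fit with the replicate number as a block called 1, Rgs9, against 1.40%. Over the members the log2 fold changes had a median of -0.02, and over all genes tested one of -0.0023. The 3 samples of each group did not overlap in 25 members (10 higher and 15 lower, 32.5%), against 27.3% of all genes. Without control 1, 16 members were called, 9 higher and 7 lower, which is 20.8% of those tested against 21.6% of all genes. Each call without control 1 given below is to be read against this 21.6%.

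**Figure D1:**
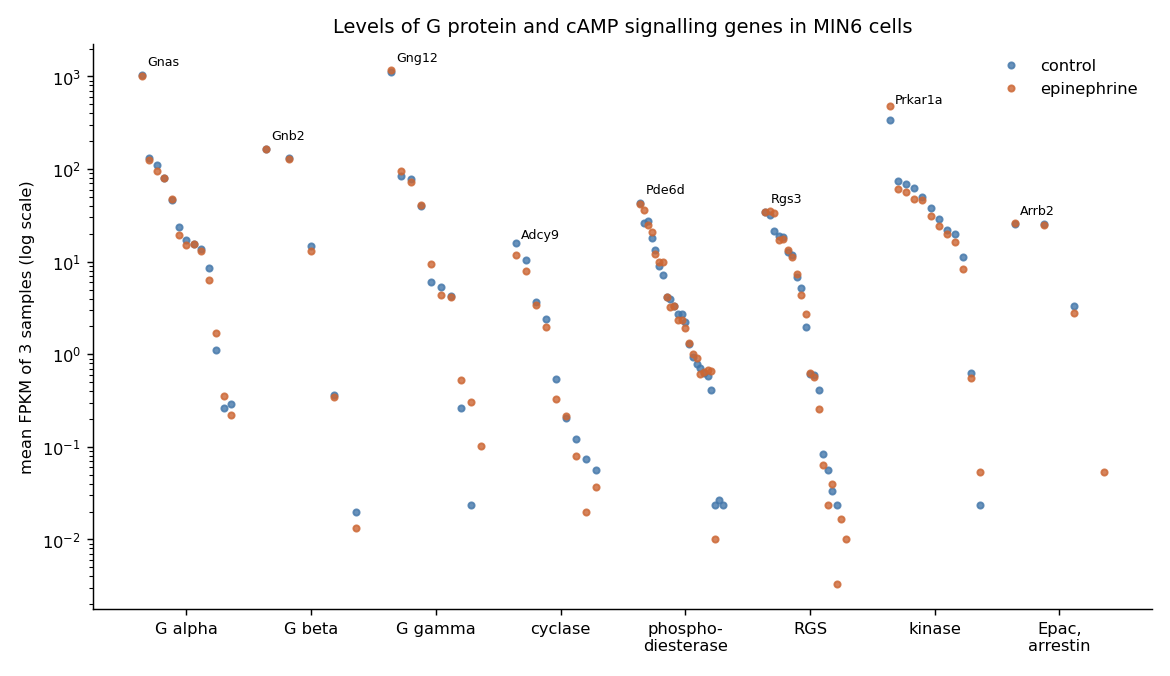
Mean FPKM (fragments per kilobase, scaled to the library total, log scale) of each member in the 3 control (blue) and 3 epinephrine samples (orange), ordered by level within each family, with the gene of highest level named. Values at 0 are not drawn; Gng12, Gnas and Prkar1a stand highest, at means over the 6 samples of 1151, 1026 and 407 FPKM.

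**Figure D2:**
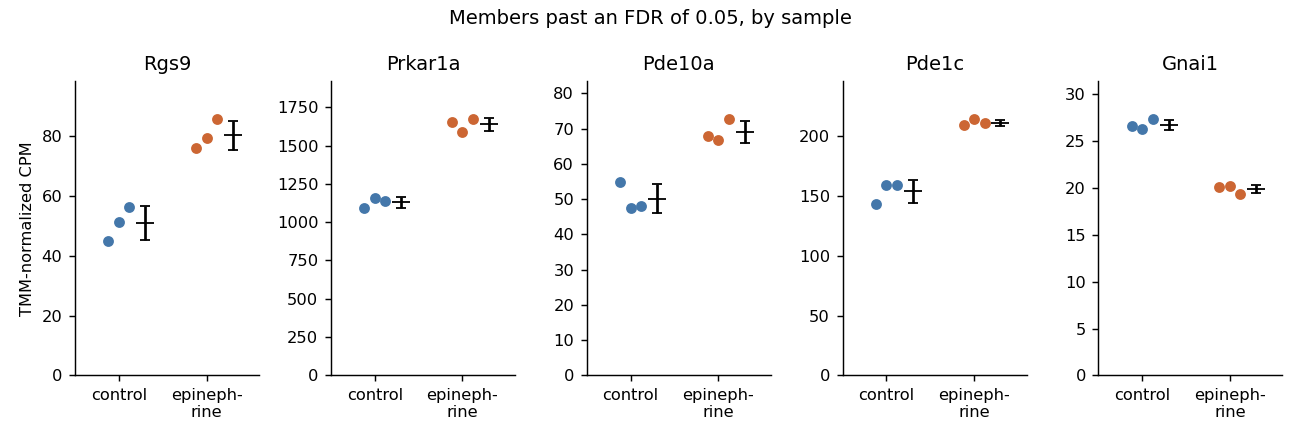
Level of the 5 members past an FDR of 0.05 in each sample, in TMM-normalized CPM (axis from 0), with the mean and SD of each group beside the points. In each panel the groups do not overlap; Rgs9, Prkar1a, Pde10a and Pde1c are higher and Gnai1 is lower in the epinephrine samples.

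The smallest FDR among the members was that of a PKA regulatory subunit. Prkar1a, which encodes the type I alpha regulatory subunit, stood at 1092, 1159 and 1135 CPM in controls 1, 2 and 3, and at 1653, 1589.5 and 1670.3 CPM in epinephrine samples 1, 2 and 3. All epinephrine samples were thus above all controls, and the spread within either group was small beside the gap between them. The fitted increase was 0.54 on the log2 scale (SE 0.08, 95% interval 0.36 to 0.72, 1.45-fold, FDR = 0.0108). With 1 sample left out at a time the increase was 0.51 to 0.56, and the call was kept without control 1 (FDR = 3.72e-09) and without control 3 (FDR = 0.0429) but not without control 2 (FDR = 0.0533) or without any of the epinephrine samples (FDR = 0.0838 to 0.109). Prkar1a was already the most abundant PKA gene, with 335 ± 6.88 FPKM in controls and 479 ± 13.9 FPKM after epinephrine (SD, n = 3 each).

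Of the other 5 PKA subunits edgeR called 0 with all samples (against 2.63% of all genes), and Prkacb, Prkar1b and Prkar2b had an unadjusted p under 0.05 (3 of 5, against 17.1%). Prkacb, the beta catalytic subunit, stood at 279, 257 and 236 CPM in controls and 205, 202 and 203 CPM after epinephrine, a log2 difference of -0.34 (SE 0.09, FDR = 0.0914). Prkaca, the alpha catalytic subunit, stood at 184, 143 and 139 CPM in controls and 128, 132 and 135 CPM after epinephrine, with a log2 difference of -0.24 (SE 0.12, FDR = 0.344). In both catalytic genes all controls lay above all epinephrine samples, but control 1 was the highest of the controls, and neither gene passed the FDR with all samples. Among the regulatory genes, Prkar1b (type I beta) had a log2 difference of -0.29 (FDR = 0.187), Prkar2b (type II beta) one of -0.24 (FDR = 0.159) and Prkar2a (type II alpha) one of 0.02 (FDR = 0.940). The groups did not overlap in Prkar1b and Prkar2b, and they did in Prkar2a. Without control 1, Prkacb (log2 difference -0.28, FDR = 0.000199), Prkar1b (-0.20, FDR = 0.00750) and Prkar2b (-0.26, FDR = 0.00102) were called lower, whereas Prkaca was not (-0.10, FDR = 0.186). That fit called 21.6% of all genes. DESeq2 called Prkacb with all samples (adjusted p = 0.0119).

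Summed over subunits, a comparison chosen after the single genes had been seen, regulatory transcripts came to 489 ± 12.9 FPKM in controls and 611 ± 18.1 FPKM after epinephrine, and catalytic transcripts to 131 ± 18.5 and 105 ± 1.35 FPKM (SD, n = 3 each). The ratio of regulatory to catalytic FPKM was 3.29, 3.96 and 4.06 in controls and 5.99, 5.65 and 5.78 after epinephrine. The groups did not overlap, and the two-sided exact permutation test gave p = 0.1, the smallest that 3 samples against 3 allow. Leaving out control 1 brought the control mean from 3.77 to 4.01, still under every epinephrine sample. Prkar1a made up 65.9%, 69.6% and 70.0% of regulatory FPKM in controls and 78.0%, 78.5% and 78.9% after epinephrine. With Prkar1a left out of the sum, the ratio was 1.18 ± 0.0508 in controls and 1.25 ± 0.0554 after epinephrine and the groups overlapped (exact permutation p = 0.2). These ratios compare transcripts, not proteins.

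**Figure D3:**
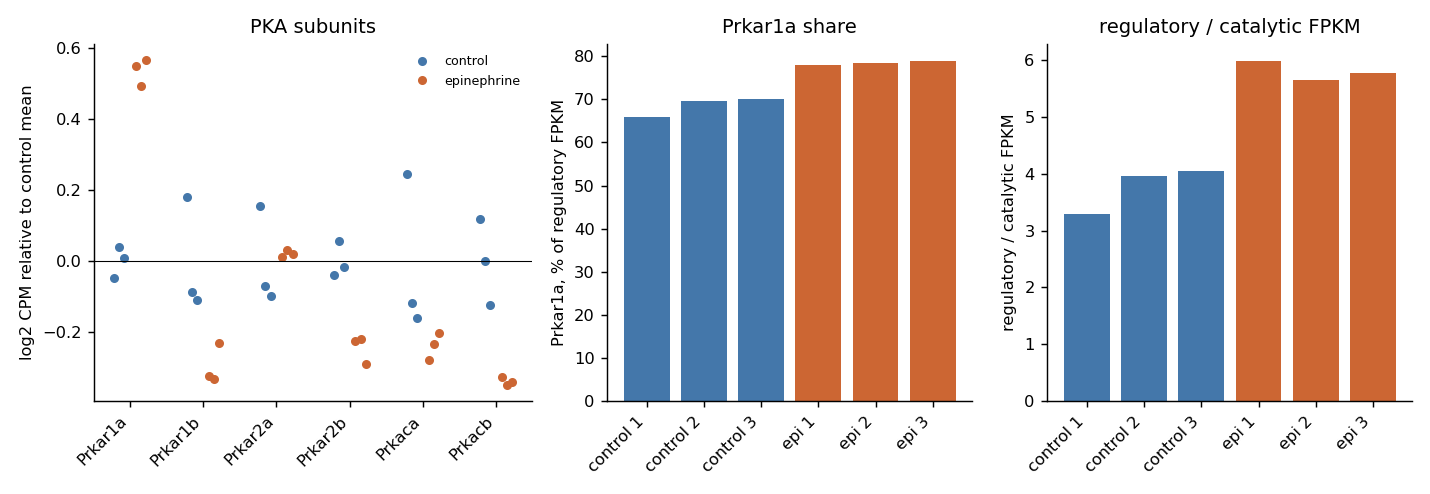
PKA subunit transcripts: left, log2 CPM of each sample relative to the control mean of its gene; middle, Prkar1a as a percentage of summed regulatory FPKM; right, the ratio of summed regulatory to catalytic FPKM. Only Prkar1a has all 3 epinephrine samples above all controls in the left panel, and the ratio is 3.29 to 4.06 in controls and 5.65 to 5.99 after epinephrine.

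Prkar1a lies at chr11:109649405-109669656 on the plus strand and Rgs9 at chr11:109225355-109298129 on the minus strand (GRCm38, GENCODE M21), and both belong to the 5 called members. Transcription through cAMP response elements is a known output of PKA, and the promoter windows of RefSeq (GRCm38.p6, 250 bases before to 50 after a start site) were searched on both strands for the full cAMP response element TGACGTCA, for its half-site TGACG, which reads CGTCA on the other strand, and for the C/EBP-ATF element TGATGCAA, which reads TTGCATCA there. A window was given for 75 of the 100 members. The sequences before a RefSeq start site of Prkar1a, the one member with the full element, and of Rgs9 and Gnai1, the called members of largest rise and of fall, are printed 5′ to 3′ on the strand of the gene, without bases that GENCODE annotates as exon. They span chr11:109650699-109650920 (plus strand), chr11:109298182-109298431 (minus strand) and chr5:18360414-18360663 (minus strand), and capitals mark matches to the letters searched.
Prkar1a: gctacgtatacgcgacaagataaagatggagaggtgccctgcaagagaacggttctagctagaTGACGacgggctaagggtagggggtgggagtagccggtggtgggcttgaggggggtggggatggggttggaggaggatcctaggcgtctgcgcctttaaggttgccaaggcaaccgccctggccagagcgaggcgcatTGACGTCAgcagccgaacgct
Rgs9: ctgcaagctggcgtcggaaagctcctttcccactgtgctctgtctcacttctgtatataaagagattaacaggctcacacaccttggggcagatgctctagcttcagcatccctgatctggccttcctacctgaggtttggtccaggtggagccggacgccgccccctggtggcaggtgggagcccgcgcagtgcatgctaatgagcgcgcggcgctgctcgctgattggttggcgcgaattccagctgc
Gnai1: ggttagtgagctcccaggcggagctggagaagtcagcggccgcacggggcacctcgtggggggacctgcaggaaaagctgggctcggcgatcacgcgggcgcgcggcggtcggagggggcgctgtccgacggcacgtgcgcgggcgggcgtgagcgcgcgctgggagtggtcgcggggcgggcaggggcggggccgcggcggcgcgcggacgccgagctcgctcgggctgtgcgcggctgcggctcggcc

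In Prkar1a the full element spans chr11:109650900-109650907, its first base 49 bases before the RefSeq start site at 109650949, one of several in this gene, for which 6 windows were searched and 2, which overlap, hold it. This start lies inside the gene as GENCODE bounds it, whereas the stretches of Rgs9 and Gnai1 lie outside theirs. The full element was found in 1 of the 75 members and in 2.03% of all genes with a window, and it contains the half-site. A half-site was present in 27 of the 75 members (36%) and in 23% of all genes. Members had more windows per gene, and by window it was present in 31 of 127 against 20.8% of all windows. The members with a half-site included Prkaca, Prkacb, Prkar1b and Prkar2a. Of the 5 called members only Prkar1a held a half-site. The C/EBP-ATF element was in none of the 75 members and in 1.03% of all genes. A match of letters is a description of the sequence, not a site or a cause, and windows that lack the letters say nothing about a factor.

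The G alpha genes set the upstream end of the pathway. Gnas (Gs alpha) was by far the most abundant, at 1026 FPKM as the mean of the 6 samples, followed by the Gi/o genes Gnai2 (129.9 FPKM), Gnao1 (104 FPKM) and Gnai3 (80.9 FPKM). Gnai1 was the least abundant Gi/o gene, at 7.45 FPKM, and the only one called. It stood at 26.6, 26.3 and 27.3 CPM in controls and at 20.1, 20.2 and 19.4 CPM after epinephrine. Every epinephrine sample was below every control, and control 1 lay between the other controls. The fitted decrease was -0.43 on the log2 scale (SE 0.09, 95% interval -0.63 to -0.23, 0.743-fold, FDR = 0.0421). With 1 sample left out it was -0.45 to -0.41, called without control 1 (FDR = 0.000455) and not in the other 5 cases (FDR = 0.117 to 0.233). Nor was Gnai1 called with limma (log2 difference -0.40, FDR = 0.0659) or without a filter on low counts (-0.43, FDR = 0.0532). Gnai1 lies at chr5:18265135-18360355 on the minus strand.

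Because Gnai1 is a minor Gi/o transcript, its share of summed Gi/o FPKM was 2.46% ± 0.178 in controls and 1.93% ± 0.0327 after epinephrine (SD, n = 3 each). Gnai2, a major inhibitory subunit, stood at 309, 263 and 284 CPM in controls and 274, 283 and 271 CPM after epinephrine, and its log2 difference was -0.05 (SE 0.09, FDR = 0.827). Gnai3 stood at 239.7, 280.5 and 266 CPM and at 269, 272 and 257 CPM, with a log2 difference of 0.02 (SE 0.09, FDR = 0.927), whose sign changed with library-size scaling and with limma. For both genes the groups overlapped. Gnao1, the subunit Go alpha, stood at 625, 452 and 467 CPM in controls and 452, 443 and 465 CPM after epinephrine. Only control 1 stood out, and the log2 difference of -0.18 (SE 0.13, FDR = 0.511) shrank to -0.02 without it. Gnaz, whose product is insensitive to pertussis toxin, stood at 65.3, 57.7 and 56.3 CPM and at 53.6, 53.8 and 52.7 CPM. Its groups did not overlap, and its log2 difference was -0.16 (SE 0.09, FDR = 0.392), or -0.09 without control 1, the highest of the controls. The 5 Gi/o genes together came to 388, 331 and 337 FPKM in controls and 325, 327 and 323 FPKM after epinephrine, groups that did not overlap (exact permutation p = 0.1); without control 1 the control mean was 334 FPKM.

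Gnas stood at 1755, 1330.1 and 1391 CPM in controls and at 1537, 1520.3 and 1581 CPM after epinephrine. The epinephrine samples lay between control 1 and the other controls, and the log2 difference was 0.05 (SE 0.12, 95% interval -0.21 to 0.31, FDR = 0.854). Without control 1 it was 0.18 and Gnas was called higher (FDR = 0.00508). Limma on FPKM gave it the opposite sign, and 22% of the exon bases of Gnas overlap antisense genes, whose reads may not be separable. Gna15, a Gq-family alpha subunit, had low levels of 2.59, 1.54 and 2.25 CPM in controls and 3.32, 3.47 and 3.37 CPM after epinephrine. Its groups did not overlap, and the log2 difference of 0.68 (SE 0.22) had an FDR of 0.169 with all samples and of 0.0205 without control 1. Of the other 5 Gq and G12 genes, edgeR and DESeq2 called 0 (against 2.63% and 4.20% of all genes), 0 had an unadjusted p under 0.05 (against 17.1%), and their log2 differences ran from -0.26 in Gnaq (-0.11 without control 1) to 0.27 in Gna14 (0.18 without it).

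Among the beta-gamma genes, 11 were tested (4 beta and 7 gamma) and edgeR called 0 of them (against 2.63% of all genes), with 1 at an unadjusted p under 0.05 (against 17.1%) and 0 called by DESeq2 (against 4.20%). Gng12 was the most abundant of all members, at 1151 FPKM, and made up 83.7% ± 0.736 of gamma FPKM in controls and 83.9% ± 0.282 after epinephrine (SD, n = 3 each). It stood at 2724, 2853 and 2876 CPM in controls and at 2866, 2949.9 and 2879 CPM after epinephrine, a log2 difference of 0.04 (SE 0.08, FDR = 0.832). Gnb2, the most abundant beta gene at 165 FPKM, stood at 239, 212 and 232 CPM and at 219, 223 and 239 CPM, a log2 difference of -0.0039 (SE 0.09, FDR = 0.987). Both genes overlapped between the groups. Gnb1 stood at 420.0, 359.6 and 365 CPM and at 378, 356 and 360.2 CPM, with a log2 difference of -0.06 (SE 0.09, FDR = 0.762). Gnb5, the obligate partner of the R7 family of RGS proteins, stood at 32.1, 30.4 and 28.3 CPM in controls and at 28.2, 27.6 and 28.2 CPM after epinephrine. Its groups touched without overlapping, and its log2 difference was -0.11 (SE 0.09, FDR = 0.562), or -0.07 without control 1. Gng2 stood at 13.1, 15.8 and 14.2 CPM and at 18.0, 21 and 15.7 CPM, a log2 difference of 0.34 (SE 0.13, FDR = 0.242), and Gng7 at 21, 15 and 15.8 CPM and at 14.8, 14.3 and 15.3 CPM, one of -0.23 (SE 0.14, FDR = 0.461). In Gng7 the excess was that of control 1 alone, and the difference was -0.06 without it. Most of Gng10 (71.5% of its windows of 50 bases) is shared with the overlapping gene model Gm20503, which had a count of 0 in every sample.

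The cyclase transcripts were led by Adcy9 (14.0 FPKM) and Adcy6 (9.22 FPKM), the latter a form that Gi inhibits. Adcy9 stood at 95.9, 61.2 and 62.3 CPM in controls and 56.3, 53.1 and 55.6 CPM after epinephrine, and its log2 difference was -0.41 (SE 0.17, FDR = 0.262). Adcy6 stood at 64.4, 45.5 and 39.2 CPM in controls and 39.7, 39.1 and 42.1 CPM after epinephrine, with a log2 difference of -0.30 (SE 0.17, FDR = 0.406). Adcy9 did not overlap between the groups and Adcy6 did, but in both it was control 1 that stood highest. Without this sample the log2 differences were -0.17 and -0.08. Adcy5, also inhibited by Gi and scarce here (0.438 FPKM), stood at 4.98, 3.03 and 3.38 CPM in controls and 2.55, 2.35 and 2.12 CPM after epinephrine. Its groups did not overlap, and the log2 difference of -0.69 (SE 0.23, FDR = 0.183) was -0.45 without control 1. Adcy8, a calcium-stimulated cyclase known from beta cells, had 32 counts in all and was not tested. Over the family, edgeR called 0 of the 6 tested genes (against 2.63% of all genes), with 2 at an unadjusted p under 0.05 (against 17.1%), and DESeq2 called 0 (against 4.20%). Summed cyclase FPKM was 43.4, 30.1 and 27.5 in controls and 26.1, 25.4 and 26.3 after epinephrine; the control mean was 33.6 with control 1 and 28.8 without it, against 25.9 after epinephrine.

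Both phosphodiesterases that rose hydrolyse cAMP as well as cGMP. Pde1c, a calmodulin-activated enzyme, stood at 143, 159.5 and 159.6 CPM in controls and at 209, 214 and 211 CPM after epinephrine. The fitted increase was 0.45 on the log2 scale (SE 0.08, 95% interval 0.27 to 0.64, 1.37-fold, FDR = 0.0271). Pde10a, a dual-substrate enzyme best known from striatal neurons, stood at 54.8, 47.4 and 48.1 CPM in controls and at 67.9, 66.8 and 72.6 CPM after epinephrine. The fitted increase was 0.46 (SE 0.09, 95% interval 0.26 to 0.67, 1.38-fold, FDR = 0.0374). Pde10a was not called with library size alone (log2 difference 0.44, FDR = 0.0624) or with limma (0.45, FDR = 0.0981). With 1 sample left out, both were called without control 1 (FDR = 8.09e-07 for Pde1c and 3.45e-07 for Pde10a) and neither was in the other 5 cases, where the FDR was 0.0683 to 0.184 for Pde1c and 0.115 to 0.219 for Pde10a. Over all 6 cases the increases were 0.41 to 0.48 and 0.42 to 0.53. In both genes every epinephrine sample was above every control, by a wider gap than the range of either group. Pde1c lies at chr6:56069804-56569103 on the minus strand and Pde10a at chr17:8525372-8986648 on the plus strand.

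Pde1c was expressed at 26.4 ± 1.76 FPKM in controls, a level like that of Pde3b (27.3 ± 2.48 FPKM), and at 36.1 ± 0.0513 FPKM after epinephrine (SD, n = 3 each), the highest among the catalytic phosphodiesterases. The share of Pde1c in their summed FPKM was 21.8% ± 2.24 and 27.1% ± 0.618. Pde3b, the insulin-activated cAMP phosphodiesterase of beta cells, stood at 189, 182 and 163 CPM in controls and 166, 169 and 168 CPM after epinephrine. Its log2 difference was -0.09 (SE 0.09, 95% interval -0.28 to 0.11, FDR = 0.647), or -0.04 without control 1. Pde8b, a high-affinity cAMP phosphodiesterase, was low at 0.667 FPKM, and its log2 difference was -0.16 (SE 0.26, FDR = 0.794). For Pde3b and Pde8b the groups overlapped. Of the 8 genes of the cAMP-specific Pde4, Pde7 and Pde8 families, edgeR called 0 (against 2.63% of all genes), with Pde4b alone at an unadjusted p under 0.05 (against 17.1%), and DESeq2 called 0 (against 4.20%). Pde4b stood at 62.7, 60.8 and 56.4 CPM and at 74.7, 67.2 and 72.1 CPM, groups that did not overlap, and its log2 difference was 0.25 (FDR = 0.187, and 0.00173 without control 1). Pde6d, a prenyl-binding chaperone rather than an active phosphodiesterase, had the highest FPKM under a Pde symbol (42.5 FPKM) and a log2 difference of 0.0056 (SE 0.10, FDR = 0.983), whose sign changed with the scaling. Pde2a had the widest interval of the members (log2 difference 0.75, 95% interval -0.86 to 2.37). Its expected counts were 41.0, 0 and 37.0 in controls and 49.0, 52.0 and 36.0 after epinephrine. In control 2, with 0, the overlapping model Gm45837 had 35.0 counts, and it had 0 in the others. Summed over both models the level was 2.32 ± 0.327 CPM in controls and 2.73 ± 0.306 CPM after epinephrine (SD, n = 3 each, exact permutation p = 0.2).

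Rgs9, a GTPase-accelerating protein of the R7 family that acts on Gi/o alpha, had the largest fold change of the called members. It stood at 45.1, 51.3 and 56.4 CPM in controls and at 76.1, 79.5 and 85.7 CPM after epinephrine. The lowest epinephrine sample was above the highest control, and the fitted increase was 0.66 on the log2 scale (SE 0.10, 95% interval 0.42 to 0.89, 1.58-fold, FDR = 0.0145). With 1 sample left out the increase was 0.58 to 0.74, and the call was kept without control 1 (FDR = 1.49e-07) and without control 3 (FDR = 0.0273) but not in the other 4 cases (FDR = 0.0695 to 0.111). Rgs9 made up 36.3% ± 1.59 of R7 FPKM in controls and 48.9% ± 2.02 after epinephrine (SD, n = 3 each). The log2 differences of the other tested R7 genes were -0.06 in Rgs7 (FDR = 0.762) and -0.11 in Rgs11 (FDR = 0.706, and 0.0346 without control 1). In Rgs9, 1.2% of windows of 50 bases are shared with other genes, and the other called members share none.

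Among the remaining RGS genes, Rgs3 (34.7 FPKM) and Rgs4 (33.7 FPKM) had the highest levels. Rgs4, which acts on Gi/o and Gq alpha, stood at 89.1, 93.5 and 95.5 CPM in controls and at 107, 104 and 105 CPM after epinephrine. The groups did not overlap, and the log2 difference was 0.19 (SE 0.08, FDR = 0.264, and 0.0376 without control 1). Rgs3 stood at 114, 83.3 and 88.4 CPM in controls and at 89.6, 100.5 and 99.2 CPM after epinephrine. The log2 difference was 0.02 (SE 0.13, FDR = 0.958) with overlapping groups and changed sign under library-size scaling, and without control 1 it was 0.17 (FDR = 0.0484). Of the windows of Rgs3, 11.4% are shared with Gm5763. Rgs2, which prefers Gq alpha, stood at 21.2, 30.0 and 30.2 CPM and at 28.2, 27.0 and 26.2 CPM, with overlapping groups and a log2 difference of 0.00059 (SE 0.14, FDR = 0.999) whose sign was not stable. Rgs16, a glucose-responsive islet gene, was scarce at 1.88, 1.26 and 1.00 CPM in controls and 1.30, 1.18 and 1.52 CPM after epinephrine, and its log2 difference was -0.05 (SE 0.30, FDR = 0.953). Of the 21 RGS genes, 8 were too low to be tested, and Rgs1 and Rgs13 had a count of 0 in every sample.

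No GRK gene was called by edgeR with all samples, against 2.63% of all genes. Of the 5 tested, 2 had an unadjusted p under 0.05, against 17.1% of all genes. Grk5 stood at 81.4, 73.3 and 66 CPM in controls and at 56.0, 55.6 and 56.5 CPM after epinephrine. The groups did not overlap and control 1 was the highest. The log2 difference was -0.39 (SE 0.10, 95% interval -0.61 to -0.17, FDR = 0.0790), with an adjusted p of 0.0163 by DESeq2 and an FDR of 0.000435 without control 1. Grk3, which beta-gamma dimers recruit to the membrane, had a log2 difference of -0.25 (FDR = 0.218), or -0.16 without control 1 (FDR = 0.0292). The most abundant GRK gene, Grk2, had one of -0.15 (FDR = 0.597), and all 5 tested GRK genes were below 0, from -0.39 to -0.09, with a median of -0.15. Control 1 was the highest control in all 5, and without it Grk2 was at -0.01, Grk4 at 0.03 and the median at -0.05. Over the 11 tested kinase genes of both families, 1 was called (9.09%, against 2.63% of all genes), 9 had log2 differences below 0 and the groups did not overlap in 7 (against 27.3% of all genes), of which 6 were lower (against 13.0%), with a median of -0.24. That median was -0.10 without control 1.

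Of the 3 tested genes of Epac and arrestin, edgeR called 0 (against 2.63% of all genes), DESeq2 called 0 (against 4.20%) and 0 had an unadjusted p under 0.05 (against 17.1%). Rapgef4, which encodes Epac2, the cAMP sensor of beta-cell granules, was expressed at 25.0 FPKM and stood at 109, 101 and 105 CPM in controls and 100.3, 99.1 and 111 CPM after epinephrine, a log2 difference of -0.02 (SE 0.09, 95% interval -0.21 to 0.18, FDR = 0.942). Rapgef3, encoding Epac1, had 7 counts in all, none of them in a control. Arrb2 stood at 41.5, 36.1 and 39.4 CPM and at 39.9, 40.6 and 43.0 CPM, a log2 difference of 0.08 (SE 0.09, FDR = 0.710). Arrb1 stood at 23.0, 15.7 and 17.6 CPM and at 16.5, 18.1 and 19.4 CPM, a log2 difference of -0.06 (SE 0.15, FDR = 0.871). In Rapgef4, Arrb1 and Arrb2 the groups overlapped.

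**Figure D4:**
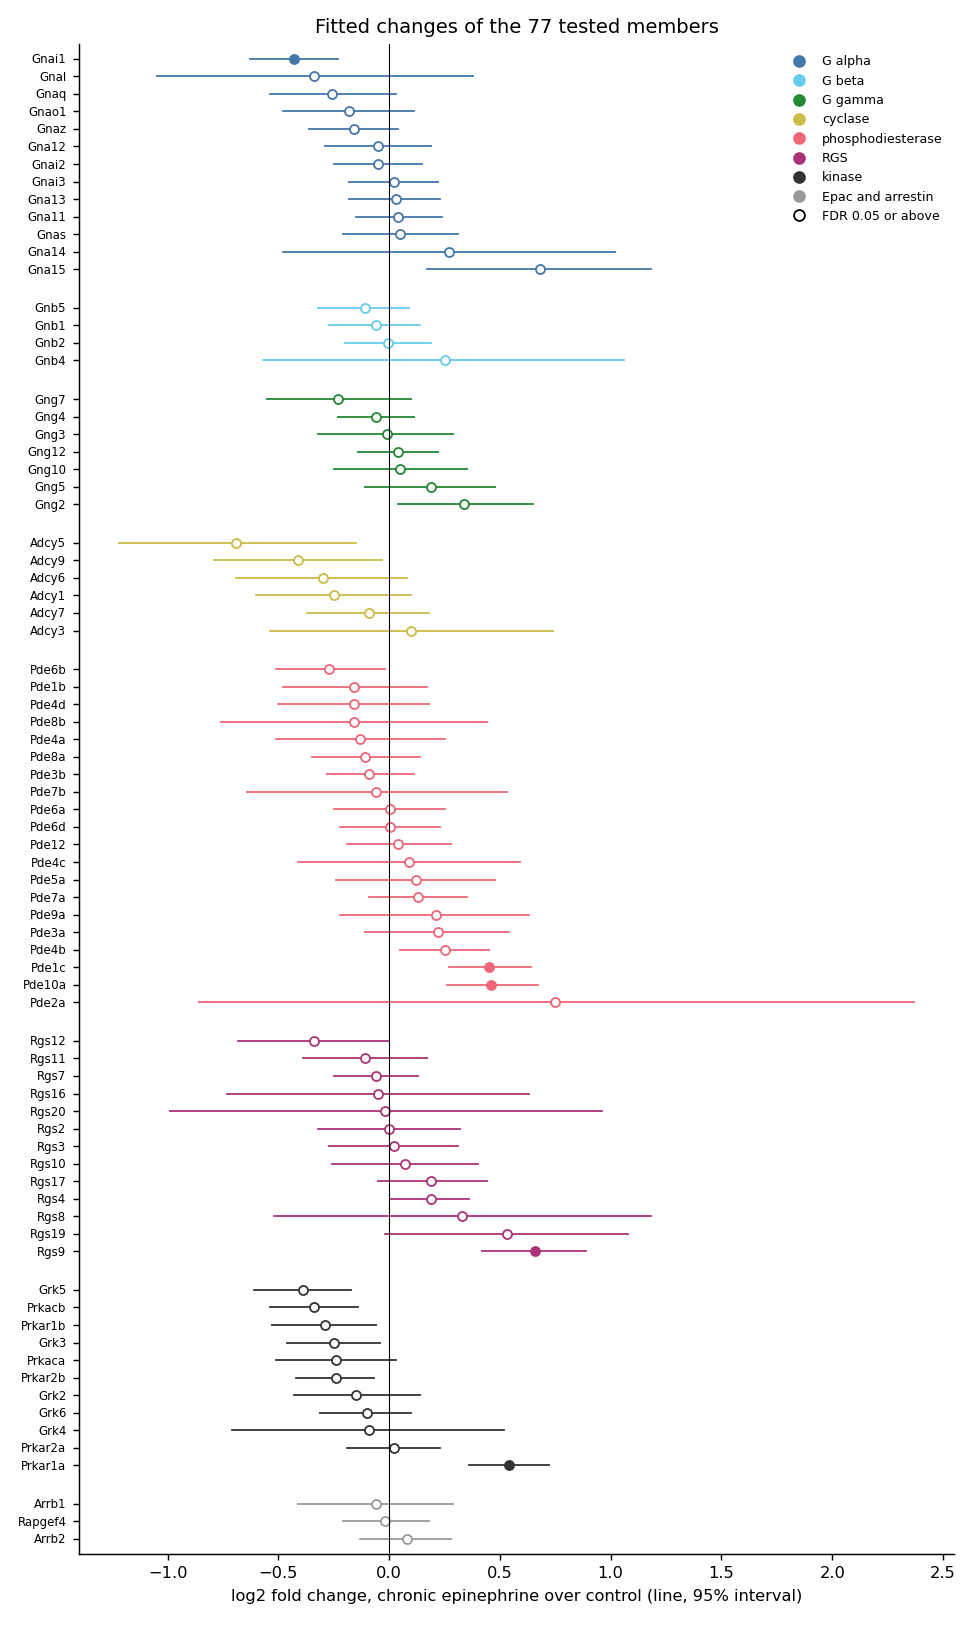
Fitted log2 fold change (chronic epinephrine over control) of the 77 tested members by family, with 95% intervals; filled points passed an FDR of 0.05 and open points did not. The 4 filled points right of 0 are Rgs9, Pde10a, Pde1c and Prkar1a, the 1 left of 0 is Gnai1, and Pde2a has the widest interval.

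Of the 23 members not tested, 5 had a count of 0 in every sample, namely Rgs1, Rgs13, Adcy4, Pde11a and Pde6h. By level, 62 members had a mean of at least 1 FPKM and 40 one of at least 10 FPKM. The family medians of log2 fold change, a description with no test, were -0.05 for G alpha, -0.03 for G beta, 0.04 for G gamma, -0.28 for the cyclases, 0.02 for the phosphodiesterases, 0.02 for the RGS genes, -0.24 for the kinases and -0.02 for Epac and arrestin, against -0.0023 for all genes tested. Without control 1 they were 0.01, 0.02, 0.02, -0.07, 0.03, 0.15, -0.10 and 0.11 in the same order of families, against 0.0013 for all genes, so that those of RGS and of Epac and arrestin moved up and those of the cyclases and kinases moved toward 0.

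Other genes of the pathway were described from fixed lists. Among the PKA inhibitors and anchoring proteins, edgeR called 0 of 17 tested, with 1 at an unadjusted p under 0.05 and a median log2 fold change of -0.08; over all genes 2.63% were called and 17.1% had such a p. Among the CREB, CREM and ATF factors with their coactivators and salt-inducible kinases, 1 of 13 was called and 3 had an unadjusted p under 0.05, with a median of -0.03. This was Sik1, a kinase induced by cAMP that restrains CREB coactivators, at 11.7, 9.20 and 10.8 CPM in controls and 19.2, 14.9 and 17.7 CPM after epinephrine (log2 fold change 0.71, SE 0.14, FDR = 0.0365). Among the other G protein subunits and accessory proteins, 1 of 23 was called and 7 had an unadjusted p under 0.05, with a median of 0.06. This was Gprasp2, a sorting protein for G protein-coupled receptors, at 54.6, 53.4 and 49.2 CPM in controls and 36.8, 35.9 and 33.3 CPM after epinephrine (log2 fold change -0.57, SE 0.09, FDR = 0.0136). In Sik1 and Gprasp2 the groups did not overlap.

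Markers of other cell types were also summed. Of the 20 beta-cell markers, 1 was called higher and 3 lower (against 2.02% and 0.612% of all genes) and 9 had an unadjusted p under 0.05 (against 17.1%). The list of alpha, delta and PP cell markers came to 1191 to 1711 CPM in controls and 2214 to 2410.0 CPM after epinephrine, with 2 of 5 tested genes called higher and 3 at such a p. Hepatocyte markers came to 63.4, 167 and 355 CPM in controls and 49.2 to 53.6 CPM after epinephrine (1 of 7 called lower, 4 at such a p). Alb, not among the genes tested, stood at 0.194, 33.9 and 82.3 CPM in controls and at 0.297 to 0.448 CPM after epinephrine. Fga and Trf, also not tested, were likewise highest in controls 2 and 3, whereas Ass1 was highest in control 1. Controls 2 and 3 are those kept in the fit without control 1. Exocrine markers came to 2.72 to 4.0 and 12.4 to 14.0 CPM (the 1 gene tested was called higher, with 15 of 19 at 3 counts or fewer), leukocyte markers to 4.06 to 6.28 and 8.66 to 11 CPM (1 of 3 called higher, 2 at such a p, with Ptprc and 8 others at 3 counts or fewer), fibroblast markers to 5.77 to 32.2 and 3.97 to 25.4 CPM (0 of 6 called by edgeR, 1 at an unadjusted p under 0.05) and endothelial markers to 13.1 to 16.1 and 11.7 to 13.6 CPM (0 of 3, none at an unadjusted p under 0.05). The part of these differences in the changes of the called members was not tested.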

How the data were processed

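Aligner and counting tool are not given in the sources used here; the genome build is GRCm38 per the submitters' processing notes. The authors deposited 2 values per gene in each of the 6 libraries, an expected count with no scaling (8.34% of values not whole) and an FPKM value scaled to length and library total. Expected counts were rounded, filtered (filterByExpr defaults), scaled by TMM and tested by edgeR 4.0.16 (quasi-likelihood, R 4.3.3; Python 3.11.15) over the whole table, 3 controls against 3 epinephrine samples, with Benjamini-Hochberg adjustment. CPM values are TMM-normalized; levels between genes were compared by FPKM only. The SE is the log2 fold change divided by the square root of F. Single sums used two-sided exact permutation tests. The script was tested on simulated data. Promoter windows are those of RefSeq; loci and shared 50-base windows are from GENCODE mouse release 21. Whether the counting used strand is not stated, so reads of antisense partners may not be separable.

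Full statistics were given for members past an FDR of 0.05, the 2 of smallest p and the 1 of highest FPKM in each family, and a list of beta-cell signalling genes. The symbol rule for members, the gene lists and the marker lists were written with earlier results of these data known. Alternatives were other scalings (DESeq2 size factors, upper quartile, library size), DESeq2 1.42.0, limma 3.58.1 on log2(FPKM + 1), no filter, at least 10 counts in every sample, the replicate number as a block, and each sample left out. Columns of annotation in the table were not used.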

Additional observations from a re-analysis of the deposited data

How the results depend on the processing

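The number of members called at an FDR under 0.05, 5 as reported (4 higher and 1 lower), stayed within 1.5 times under DESeq2 size factors, upper quartile scaling and library size alone, with at least 10 counts in every sample, with DESeq2 and without a filter. It was 3 with limma on log2 FPKM, which called 262 of all 12747 genes tested. The number called lower was 3 with DESeq2 (Gnai1, Grk5 and Prkacb), 0 with limma and 0 without a filter. Leaving out 1 sample at a time gave 0 to 16 members called, 0 to 9 higher and 0 to 7 lower. The 16, 9 and 7 are without control 1, where 2798 of all 12966 genes tested were called. The count was 2 without control 3 (192 of 12937 genes) and 0 without control 2 (108 of 12876 genes). It was also 0 without epinephrine sample 1 (47 of 12899 genes), 2 (47 of 12902) or 3 (77 of 12977). No setting called a member at 2-fold. The median log2 fold change over the members ran from -0.06 to 0.01. Rgs9, Prkar1a and Pde1c were called under all scalings, filters and tools run. Pde10a was not called with library size alone or with limma, and Gnai1 was not called with limma or without a filter. Their log2 differences stayed about as large.

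With the replicate number as a block, 1 member was called (Rgs9), 1 higher and 0 lower, and 178 genes (1.40%) in place of 335. The labels do not say that a number marks a shared batch, and deviations of samples with the same number correlated at 0.0502, 0.0677 and -0.0488 across genes, so the numbers were not taken to pair the samples.

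Among the members given with full statistics, the log2 differences of some changed sign. Pde6d was -0.0012 with DESeq2, -0.0013 with its size factors, -0.02 with library size alone and -0.02 with limma. Rgs2 was -0.0053 with DESeq2, -0.0057 with its size factors, -0.0019 with at least 10 counts, -0.02 with library size alone, -0.08 with limma, -0.0020 without a filter and -0.0036 with upper quartile scaling. With library size alone Gnai3 was -0.0044 and Rgs3 -0.01, and with limma Gnai3 was -0.0024 and Gnas -0.0037. With 1 sample left out the ranges that crossed 0 among these genes were -0.19 to 0.11 for Arrb1, -0.11 to 0.01 for Gnai2, -0.04 to 0.07 for Gnai3, -0.03 to 0.18 for Gnas, -0.11 to 0.01 for Gnb1, -0.06 to 0.03 for Gnb2, -0.06 to 0.08 for Pde6d, -0.36 to 0.04 for Pde8b, -0.07 to 0.02 for Rapgef4, -0.23 to 0.23 for Rgs16, -0.15 to 0.08 for Rgs2 and -0.08 to 0.17 for Rgs3. The causes were not tested. The 23 members under the filter were left out of the reported test. In the fit without a filter, which took in those with any counts, none of them was called, and levels this low limit what can be detected. DESeq2 called none of them either. It can leave genes this scarce without an adjusted p, so its result is no second test of them.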

Other observations

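Some further proportions and sums within the pathway are given as values only. Gnas made up 69.3% ± 1.59 of summed G alpha FPKM in controls and 70.7% ± 0.492 after epinephrine, and the ratio of Gnas to summed Gi/o FPKM was 2.92 ± 0.243 and 3.14 ± 0.0839 (SD, n = 3 each). In both the groups overlapped through control 1; without it the control means were 68.4% and 2.78, against 70.2% to 71.1% and 3.06 to 3.23 in the epinephrine samples. Summed FPKM of the phosphodiesterases that hydrolyse both nucleotides was 66.7, 64.9 and 62.1 in controls and 75.2, 74.5 and 75.3 after epinephrine, groups that did not overlap, while the cAMP-specific families came to 50.1, 44.8 and 46.4 and to 51.4, 46.5 and 49.2, groups that overlapped. Summed RGS FPKM was 162, 165 and 169 in controls and 174, 182 and 182 after epinephrine. The RGS sum and the sum for both nucleotides include called members. From controls to epinephrine samples, mean FPKM went from 21.4 to 33.5 in Rgs9, from 26.4 to 36.1 in Pde1c and from 7.10 to 9.99 in Pde10a. No sum without the called members was taken, so these sums do not show a rise across the rest of a family.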
